A study of Mus musculus with 8 samples.

Results

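Genes of primary cilium transport and of the ciliary transition zone were followed in 8 RNA-sequencing libraries from cells labelled as primary mouse renal fibroblasts. The members are the rows of the deposited table whose symbol begins with Ift, Bbs, Nphp or Tctn and a digit, or with Dync2, or is one of 17 named cilium genes, from Cep290 to Septin2. This gave 50 of the 22322 rows and 49 symbols, because Septin2 stands under 2 gene IDs. All 50 passed the filter on low counts, with 45 to 8918 counts per library. The symbols match subunits of the named complexes, but the rule by symbol leaves out subunits that carry other names, which are described after the members.

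Adenovirus was used to deliver GFP to 4 samples (Ad-GFP, genotype WT in the labels) and Cre recombinase to the other 4 (Ad-Cre, genotype suv39h1 knockdown). All 8 came from mouse kidney and were kept for 48 hours with TGF-β (5 ng/ml), so no group is without it. Strain, age, sex and the targeted allele are not named. Because the Ad-GFP cells received no Cre, exposure to Cre and reduction of Suv39h1 cannot be told apart. Whether replicates were separate cultures or mice is not stated, so each p-value reflects the spread among these libraries only, and that spread may be technical. The comparison asks how the transcripts of cilium genes stand when Suv39h1, a methyltransferase acting on lysine 9 of histone H3, is lowered in TGF-β-treated cells.

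The primary cilium is a single, non-motile antenna built on the mother centriole of most resting cells, kidney cells included, where it carries polycystins and Hedgehog signalling components. Intraflagellar transport (IFT) trains carry cargo along its microtubules, outward on kinesin-2 with the IFT-B complex and back on cytoplasmic dynein-2 with the IFT-A complex. The BBSome, a coat-like complex, moves membrane proteins on these trains, and the transition zone at the base, built from the MKS and NPHP modules, gates entry. Inherited loss of these genes causes ciliopathies, among them nephronophthisis and Bardet-Biedl, Joubert and Meckel syndromes, in which the kidney is often affected.

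Levels are in CPM, counts scaled to the library total, and are given in the order of replicates 1 to 4. In Ad-GFP, Suv39h1 was at 29.0, 27.8, 29.3 and 29.6 CPM, and in Ad-Cre at 25.3, 22.8, 21.6 and 22.6 CPM. Every Ad-Cre library was below every Ad-GFP library, at 79.6% of the Ad-GFP level. The log2 fold change was -0.33 ± 0.056 (edgeR adjusted p = 3.29e-05), where the value after ± is here and below the standard error over 4 libraries per group. By an exact two-sided permutation test p was 0.0286, the lowest value reachable with 4 against 4. The targeted transcript was thus lower but not absent.

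The 50 members were on the whole slightly higher in Ad-Cre, which was not so for the other rows annotated to the cilium (41 of 233 rose and 41 fell). Of the 50 members, 21 rose (42%), where 19.8% of all 13337 tested genes rose, and 1 fell (2%), where 20.5% of all tested genes fell. A gene is said to rise or fall where edgeR's quasi-likelihood test, adjusted over all tested genes, gave a value under 0.05, which 40.3% of tested genes reached. The rises were small, from 108.3% to 129.2% of the Ad-GFP level, and no member changed 2-fold. The median log2 fold change over the members was 0.12, or 108.5% of Ad-GFP, beside 0.0041 over all tested genes. In lists described below it was 0.14 for further IFT and dynein-2 subunits, 0.14 for basal body, 0.12 for BBSome-linked and 0.1 for kinesin-2 genes. For motile cilium markers it was 0.13 and for RFX factors 0.073. It was -0.0072 for further transition zone genes, -0.0098 for ciliary membrane traffic and -0.022 for disassembly genes. The shift was thus shared with some cilium lists and not with others. A positive fold change was found for 37 members and a negative fold change for 13, where 51% of tested genes were above 0. All 4 Ad-Cre libraries lay above all 4 Ad-GFP libraries for 21 members, a pattern found in 17.2% of tested genes, and below them for 2 members, a pattern found in 18.2%.

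The shift was seen in each Ad-Cre library. Against the mean of the Ad-GFP libraries, the median member stood at 0.0006, -0.0039, 0.0006 and 0.02 on the log2 CPM scale in the 4 Ad-GFP libraries and at 0.13, 0.096, 0.12 and 0.12 in the 4 Ad-Cre libraries. The summed level of all members was 1671 to 1684 CPM in the Ad-GFP libraries and 1817 to 1841 CPM in the Ad-Cre libraries, and the groups did not overlap. A large part of this sum came from the 2 Septin2 rows. Their means were 118.8 and 327.8 CPM in Ad-GFP and 143.4 and 354.9 CPM in Ad-Cre. In these bulk samples, a change in the number of cells of a type and a change in RNA per cell cannot be told apart. The share of ciliated cells was not measured.

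**Figure D1:**
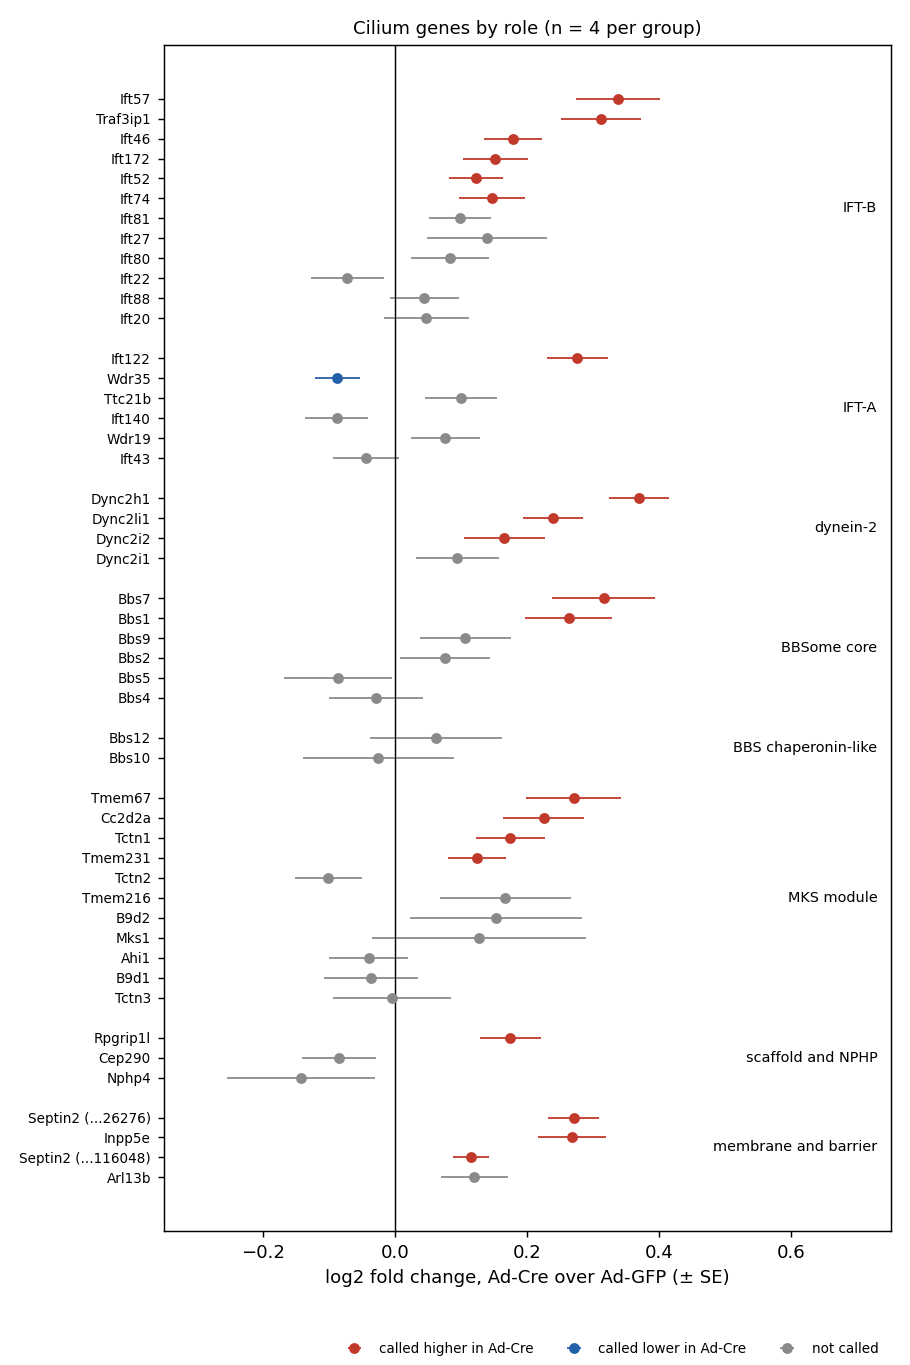
Log2 fold change of each of 48 members, Ad-Cre against Ad-GFP, with its standard error as a bar, in role groups from IFT-B at the top to the ciliary membrane at the bottom. The fold changes run from -0.14 for Nphp4 to 0.37 for Dync2h1, with the 20 members shown that rose in red, the 1 that fell in blue and the rest in grey.

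**Figure D2:**
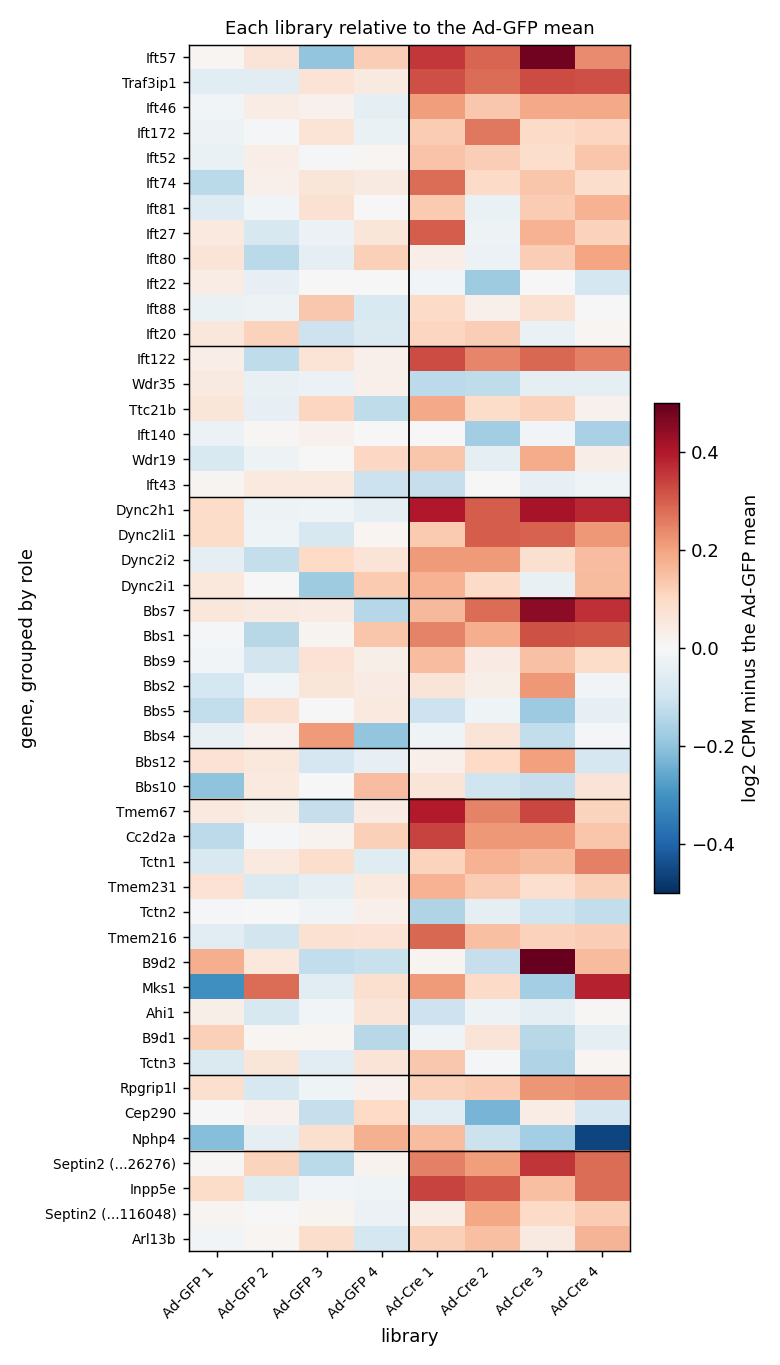
Log2 CPM of 48 members in each of the 8 libraries, as the difference from the mean of the 4 Ad-GFP libraries, red where higher and blue where lower, with full colour beyond the ends of the scale. The 4 Ad-Cre columns are red for the 20 members shown that rose, while the 27 uncalled members shown hold both colours.

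The authors' own statistics named fewer members in the same direction. In the authors' deposited table, 16 members have a false discovery rate under 0.05 and a higher level in Ad-Cre, where 8.9% of all its rows do, and 0 members have a lower level, where 9.76% of its rows do. All 16 were also among the 21 called from the counts. The 8.9% and 9.76% are over all 22322 rows, of which 13337 passed the filter on low counts. All 50 members passed it, so these shares are not a like-for-like background. Fewer members were also called from the counts with DESeq2 or with upper-quartile scaling, 18 higher in each, where 16.3% and 16.2% of tested genes were higher. With limma on log2(FPKM + 1), 10 members were higher, where 12% of tested genes were. FPKM is the authors' unit scaled to transcript length and library size, and calls that ended on it are given beside each gene with the adjusted p of that fit.

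Promoter sequences were examined because RFX transcription factors bind a paired motif, the X-box, in front of many cilium genes. The RefSeq promoter table for GRCm38.p6 matched 40 of the 49 member symbols. Within 250 bases before an annotated start, the motif GTTNCC, sought on both strands (GGNAAC on the other), was found in 30 of those 40 genes (75%) and in 11574 of all 27025 genes of the table (42.8%). The paired form, GTTNCC followed after 0 to 3 bases by GGNAAC, was found in 4 of 40 members (10%) and in 213 genes of the table (0.788%). These matches contain the single motif as well. The 4 paired matches are printed below with the match in capitals and flanking promoter sequence in lower case, since they are the members in which both arms of an X-box-like motif stand together.
Ift57, chr16:49699204-49699258, plus strand: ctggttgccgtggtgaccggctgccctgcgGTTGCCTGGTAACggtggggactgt
Bbs7, chr3:36613485-36613540, minus strand: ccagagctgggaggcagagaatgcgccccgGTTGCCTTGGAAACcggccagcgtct
Mks1, chr11:87853161-87853214, plus strand: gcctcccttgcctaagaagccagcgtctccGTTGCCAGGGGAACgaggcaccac
Tctn3, chr19:40612347-40612401, minus strand: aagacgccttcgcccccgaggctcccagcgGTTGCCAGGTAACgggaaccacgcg
In these stretches the paired match began 60 bases before the RefSeq start of Ift57, 121 before that of Bbs7, 24 before that of Mks1 and 140 before that of Tctn3. GENCODE M21 places the start of Ift57 at 49699233, further upstream than RefSeq, so by that annotation its match lies in the transcribed first exon and not before it. Ift57 and Bbs7 rose, whereas Mks1 and Tctn3 were not called. Among the 40 genes, the paired motif was in 2 of 15 that rose and 2 of 25 that did not, and the single motif in 11 of 15 and 19 of 25. A match is a description of the letters in this window and not a measured binding site.

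The 12 IFT-B members belong to the complex that couples trains to cargo and to kinesin-2. Of these 12 members, 6 rose (50%, beside 19.8% of all tested genes) and 0 fell (beside 20.5%). Their median log2 fold change was 0.13. Ift57, a peripheral IFT-B subunit, was at 24.5, 25.4, 21.2 and 26.5 CPM in Ad-GFP and at 31.1, 29.8, 33.9 and 28.7 CPM in Ad-Cre. All Ad-Cre libraries were above all Ad-GFP libraries, at 126.4% of the Ad-GFP level (log2 fold change 0.34 ± 0.064, adjusted p = 1.36e-04). Ift57 shares 225 exonic bases with the opposite-strand gene Gm15518. Traf3ip1, which encodes the microtubule-binding IFT-B subunit IFT54, was at 15.7, 15.7, 17.1 and 16.9 CPM in Ad-GFP and at 20.4, 19.9, 20.5 and 20.4 CPM in Ad-Cre. Its groups were well apart, with a log2 fold change of 0.31 ± 0.061 (adjusted p = 1.91e-04).

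Ift46, an IFT-B core subunit linked to the import of axonemal dyneins, was at 35.3, 36.5, 36.1 and 34.5 CPM in Ad-GFP and at 41.1, 39.0, 40.6 and 40.6 CPM in Ad-Cre. The groups did not overlap and the log2 fold change was 0.18 ± 0.044 (adjusted p = 0.00205), but on FPKM Ift46 was not called, at 0.12 (adjusted p = 0.184). Ift172, Ift52 and Ift74 rose less, with log2 fold changes of 0.15, 0.12 and 0.15. Ift172 is a peripheral subunit, Ift52 anchors the core, and Ift74 pairs with Ift81 to bind tubulin. On FPKM none of these 3 was called: Ift172 was at 0.048 (adjusted p = 0.616), Ift52 at 0.093 (0.153) and Ift74 at 0.12 (0.112). The call of Ift52 also ended with DESeq2 (adjusted p = 0.0564) and upper-quartile scaling (0.0509). All 3 were lost when single libraries were left out, Ift172 without Ad-Cre replicate 2 (adjusted p = 0.0945), Ift52 without Ad-GFP replicate 1 (0.0594) and Ift74 without Ad-GFP replicate 1 (0.122) or Ad-Cre replicate 1 (0.0997). Among the 6 uncalled members, Ift81 had a log2 fold change of 0.098 (adjusted p = 0.0973, but 0.0141 without Ad-Cre replicate 2, where it was 0.14). Ift27 was at 0.14, Ift80 at 0.083, Ift88 at 0.044, Ift20 at 0.047 and Ift22 at -0.072.

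The 6 IFT-A members belong to the complex that carries returning trains and brings membrane receptors in. Of them, 1 rose and 1 fell (16.7% each, near the 19.8% and 20.5% of all tested genes), and 4 were not called. Their median log2 fold change was 0.016. Ift122, a core subunit, was at 38.7, 34.6, 39.6 and 38.5 CPM in Ad-GFP and at 47.4, 44.8, 46.1 and 44.95 CPM in Ad-Cre. Every Ad-Cre library was higher, at 121.1% of Ad-GFP (log2 fold change 0.28 ± 0.046, adjusted p = 3.1e-05). Wdr35, which encodes the IFT-A subunit IFT121 and was the only member that fell, was at 81.6, 77.0, 77.4 and 80.4 CPM in Ad-GFP and at 72.2, 72.4, 76.7 and 76.5 CPM in Ad-Cre. The gap between the groups was narrow, and the log2 fold change of -0.087 ± 0.034 was close to the threshold (adjusted p = 0.0467). The fall of Wdr35 was not called without Ad-GFP replicate 1 (adjusted p = 0.131), Ad-GFP replicate 4 (0.106), Ad-Cre replicate 1 (0.107) or Ad-Cre replicate 2 (0.118), nor with no filter (0.079), DESeq2 (0.0855) or FPKM (0.0554). The uncalled IFT-A members were Ttc21b at a log2 fold change of 0.1, Wdr19 at 0.076, Ift43 at -0.044 and Ift140 at -0.088.

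Dynein-2 is the motor of return transport. Of the 4 members that encode its subunits, 3 rose (75%, beside 19.8% of all tested genes) and 0 fell (beside 20.5%). Dync2h1, the motor's heavy chain, had the largest fold change and the smallest p of all members. Its level was 37.2, 34.3, 34.4 and 33.8 CPM in Ad-GFP and at 46.0, 43.0, 46.4 and 45.3 CPM in Ad-Cre. The groups were separated by more than their spread, at 129.2% of the Ad-GFP level (log2 fold change 0.37 ± 0.046, adjusted p = 3.49e-07). Dync2li1, the light intermediate chain that stabilises the heavy chain, was at 50.5, 46.7, 44.9 and 47.8 CPM in Ad-GFP and at 51.9, 58.5, 58.1 and 55.2 CPM in Ad-Cre. Ad-Cre replicate 1 was nearest to the Ad-GFP libraries and still above them, and the log2 fold change was 0.24 ± 0.045 (adjusted p = 1.35e-04).

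Dync2i2, the dynein-2 intermediate chain also known as WDR34, was at 19.2, 18.3, 21.2 and 20.7 CPM in Ad-GFP and at 22.9, 23.0, 20.96 and 22.1 CPM in Ad-Cre. Ad-Cre replicate 3 lay below Ad-GFP replicate 3, which made it the only risen member whose groups overlapped (log2 fold change 0.17 ± 0.062, adjusted p = 0.0334). Dync2i2 was no longer called without Ad-GFP replicate 1 (adjusted p = 0.0893) or 2 (0.131) and without Ad-Cre replicate 1 (0.0749), 2 (0.0894) or 4 (0.0553). It was also lost with upper-quartile scaling (0.0652), the filter of 5 CPM (0.0539), DESeq2 (0.0787) and FPKM (0.0847). Dync2i1, the other intermediate chain, was not called, with a log2 fold change of 0.095.

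Of the 6 BBSome core members, 2 rose (33.3%, beside 19.8% of all tested genes) and 0 fell (beside 20.5%). The median log2 fold change of these 6 was 0.091. Bbs7, a β-propeller subunit, was at 12.4, 12.3, 12.3 and 10.8 CPM in Ad-GFP and at 13.4, 14.5, 16.3 and 15.4 CPM in Ad-Cre. The groups did not overlap, and the log2 fold change was 0.32 ± 0.078 (adjusted p = 0.00207). On FPKM Bbs7 was not called, at 0.23 (adjusted p = 0.0828). Bbs1, the subunit that binds the small GTPase ARL6 on the membrane, was at 16.8, 15.4, 17.1 and 18.6 CPM in Ad-GFP and at 20.1, 19.2, 21.1 and 20.98 CPM in Ad-Cre. It was higher in every Ad-Cre library, with a log2 fold change of 0.26 ± 0.066 (adjusted p = 0.00235). Bbs9, Bbs2, Bbs4 and Bbs5 were not called, at log2 fold changes of 0.11, 0.076, -0.029 and -0.086. Bbs10 and Bbs12, chaperonin-like proteins that help the BBSome assemble, were not called either, at -0.025 and 0.062. Their standard errors, 0.11 and 0.099, were among the larger ones, since these genes were at 5.7 and 7.27 CPM in Ad-GFP, against a median standard error of 0.057 over the members.

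The MKS module is the membrane-associated part of the transition zone. Of the 11 members in it, 4 rose (36.4%, beside 19.8% of all tested genes) and 0 fell (beside 20.5%). Their median log2 fold change was 0.13. Tmem67, which encodes the receptor-like membrane protein meckelin, was at 15.02, 14.8, 13.4 and 14.9 CPM in Ad-GFP and at 19.1, 17.3, 18.3 and 15.7 CPM in Ad-Cre. Ad-Cre replicate 4 lay closest to the Ad-GFP libraries without overlap, and the log2 fold change was 0.27 ± 0.072 (adjusted p = 0.00389). Cc2d2a, a coiled-coil scaffold of the MKS module, was at 19.4, 21.2, 21.6 and 23.1 CPM in Ad-GFP and at 26.9, 24.8, 24.8 and 23.5 CPM in Ad-Cre. The highest Ad-GFP and lowest Ad-Cre libraries nearly touched, and the log2 fold change was 0.23 ± 0.061 (adjusted p = 0.00463), but Cc2d2a was not called on FPKM (0.17, adjusted p = 0.0589).

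Tctn1, a tectonic protein on the outer face of the transition zone, was at 26.8, 29.2, 29.97 and 27.1 CPM in Ad-GFP and at 30.5, 31.8, 31.5 and 33.6 CPM in Ad-Cre. The groups were adjacent but did not overlap (log2 fold change 0.17 ± 0.052, adjusted p = 0.00962), and on FPKM Tctn1 was not called (0.11, adjusted p = 0.154). Tctn1 shares 1574 exonic bases with the opposite-strand gene Hvcn1, whose mean was 2.36 CPM in Ad-GFP and 2.54 CPM after Ad-Cre. Tmem231, a transmembrane subunit of the gate, rose by a log2 fold change of 0.12 (adjusted p = 0.0273), a call lost without Ad-GFP replicate 2 (adjusted p = 0.104) or 3 (0.0888) and without Ad-Cre replicate 1 (0.0722) or 2 (0.053). The call of Tmem231 also ended with upper-quartile scaling (0.0657), the filter of 5 CPM (0.0515), DESeq2 (0.0611) and FPKM (0.106). Of the 7 uncalled members, Tmem216 had non-overlapping groups, at 6.36 to 7.15 CPM in Ad-GFP and 7.35 to 8.28 CPM in Ad-Cre (adjusted p = 0.186). Tctn2 was the reverse case, at 26.9 to 27.7 CPM in Ad-GFP and 24.5 to 26.4 CPM in Ad-Cre (log2 fold change -0.1, adjusted p = 0.119). B9d2 and Mks1 were at log2 fold changes of 0.15 and 0.13 with standard errors of 0.13 and 0.16, and Tctn3, B9d1 and Ahi1 were at -0.0043, -0.036 and -0.04.

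In the transition zone scaffold and the NPHP module, Rpgrip1l rose, and Cep290 and Nphp4 were not called. Rpgrip1l, a scaffold on which both modules assemble, was at 41.7, 37.2, 38.8 and 40.0 CPM in Ad-GFP and at 42.6, 43.0, 46.0 and 46.2 CPM in Ad-Cre. The lowest Ad-Cre library was about 1 CPM above the highest Ad-GFP library (log2 fold change 0.17 ± 0.046, adjusted p = 0.00385). On FPKM Rpgrip1l was not called (0.15, adjusted p = 0.0705). Cep290, which forms the links between microtubules and membrane, and Nphp4, of the NPHP module, had log2 fold changes of -0.085 ± 0.056 and -0.14 ± 0.11. Over the alternatives these ran from -0.13 to -0.036 for Cep290 and from -0.24 to -0.046 for Nphp4. Cep290 shares 881 exonic bases with the opposite-strand gene 4930430F08Rik.

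The 4 rows for the ciliary membrane and its diffusion barrier held 3 rises (75%, beside 19.8% of tested genes) and 0 falls (beside 20.5%). Inpp5e, the phosphoinositide 5-phosphatase that sets the lipid makeup of the ciliary membrane, was at 32.1, 28.8, 29.8 and 29.6 CPM in Ad-GFP and at 37.9, 37.2, 33.4 and 36.4 CPM in Ad-Cre. The groups did not overlap (log2 fold change 0.27 ± 0.052, adjusted p = 1.71e-04). It shares 874 exonic bases with the opposite-strand gene Pmpca, which fell from 156.1 to 125.7 CPM (log2 fold change -0.31, adjusted p = 6.63e-10), so the 2 overlapping genes moved in opposite directions. Arl13b, a small GTPase that recruits Inpp5e to the cilium, was at 29.9, 30.4, 32.0 and 28.3 CPM in Ad-GFP and at 32.7, 33.4, 31.1 and 33.9 CPM in Ad-Cre. Ad-Cre replicate 3 lay among the Ad-GFP libraries and the gene was not called (log2 fold change 0.12 ± 0.051, adjusted p = 0.0611), although it was called without Ad-GFP replicate 3 (0.036) or Ad-Cre replicate 3 (0.0369).

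Septin2 encodes a filament-forming GTPase of the barrier at the ciliary base, and it also acts in the cell cortex and in cytokinesis. Its row ENSMUSG00000026276 was at 119.0, 128.1, 107.9 and 120.1 CPM in Ad-GFP and at 141.0, 136.9, 151.7 and 144.0 CPM in Ad-Cre (log2 fold change 0.27 ± 0.038, adjusted p = 3.07e-06). The other row, ENSMUSG00000116048, was at 331.0, 328.4, 330.7 and 321.1 CPM in Ad-GFP and at 336.1, 375.0, 349.8 and 358.4 CPM in Ad-Cre (log2 fold change 0.12 ± 0.027, adjusted p = 0.00119), a call that ended on FPKM (0.093, adjusted p = 0.0517). Both rows were higher in every Ad-Cre library. The exons of the second row lie within those of the first over 3335 bases, so the split of reads between the rows is uncertain. With both rows added together, Septin2 rose by a log2 fold change of 0.16 ± 0.023 (adjusted p = 4.24e-06), and 20 of 49 members rose.

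**Figure D3:**
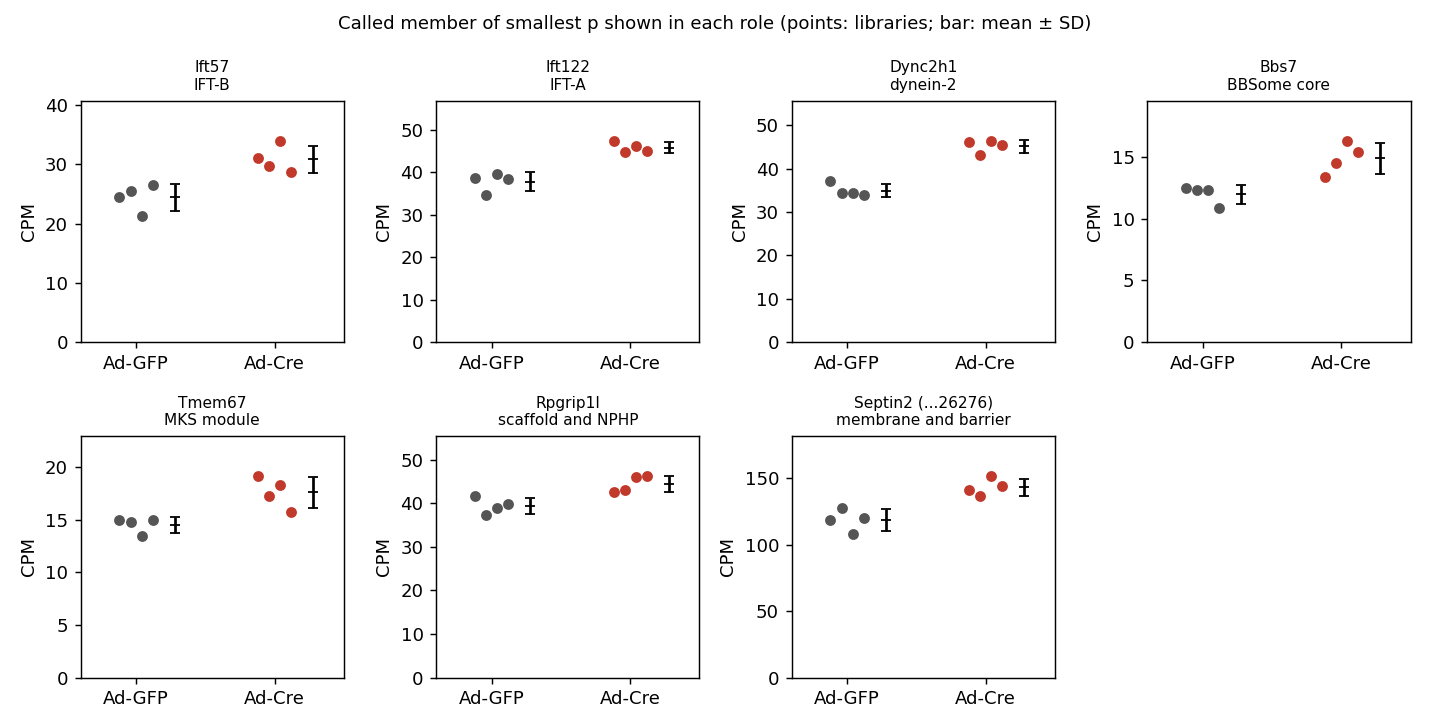
CPM, on axes from 0, of a leading risen member in each of the 7 role groups with a rise, with 1 point per library and the mean ± SD of 4 libraries beside them. Dync2h1 is at 33.8 to 37.2 CPM in Ad-GFP and at 43.0 to 46.4 CPM in Ad-Cre, and in all 7 panels the groups do not overlap.

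Levels between genes were compared on FPKM, since it is per length. The median member was at 7.54 FPKM in Ad-GFP, beside 10.1 FPKM for the median tested gene. The highest member was the Septin2 row ENSMUSG00000116048, at 101.5 ± 1.49 FPKM in Ad-GFP and 108.4 ± 5.03 FPKM in Ad-Cre (SD, n = 4). Mks1, of the MKS module, was among the lowest, at 1.3 ± 0.22 and 1.4 ± 0.22 FPKM. Within dynein-2, Dync2li1 was at 35.3 FPKM and Dync2h1 at 2.61 FPKM in Ad-GFP, a ratio of 13.5, so subunits of 1 motor differed widely in transcript level. Within IFT-A, Ift43 was the highest at 40.8 FPKM and Ttc21b the lowest at 6.93 FPKM, and within IFT-B Ift46 was at 27.0 FPKM and Traf3ip1 at 5.03 FPKM. When Ad-Cre and Ad-GFP were compared with limma on log2(FPKM + 1), 10 members rose, where 12% of tested genes did, and 0 fell. The log2 ratio of group means was lower on FPKM than on CPM for 44 of 50 members, by a median of 0.021, which is also the median shift over 11675 genes.

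**Figure D4:**
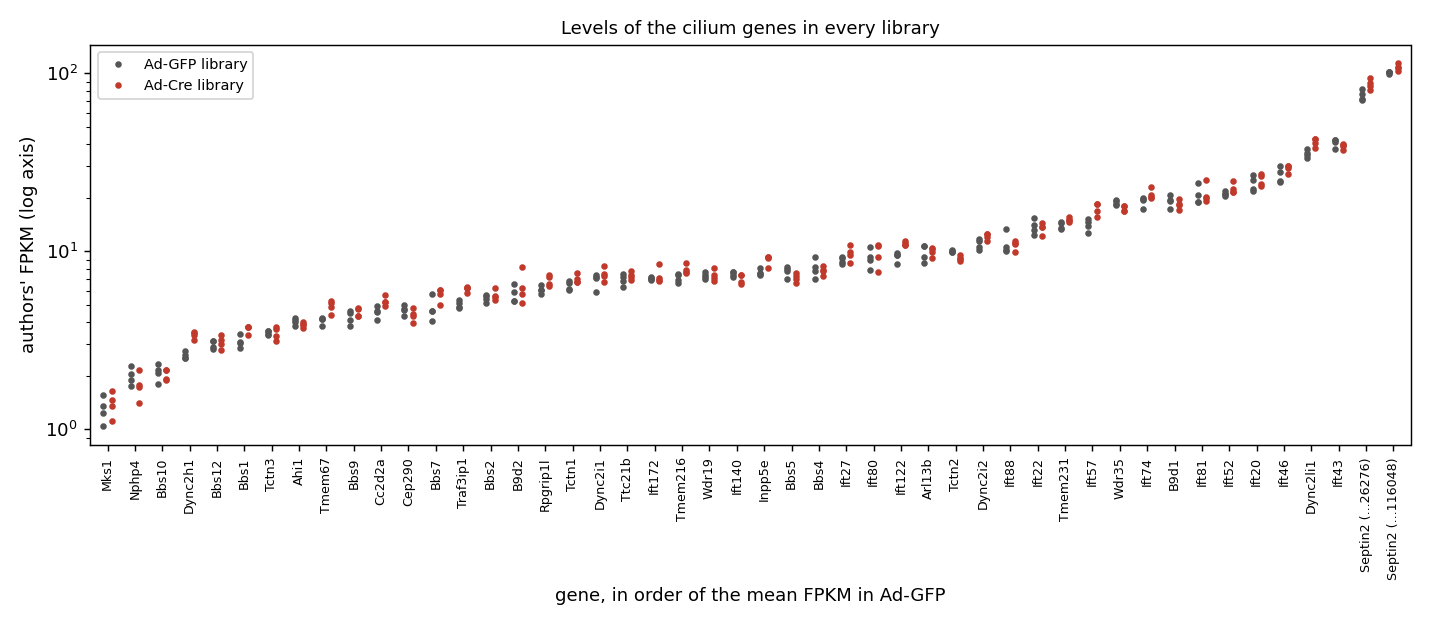
FPKM of 48 members on a log axis, 1 point per library (grey for Ad-GFP, red for Ad-Cre), in order of the mean in Ad-GFP. Mean levels range from 1.3 FPKM for Mks1 to 101.5 FPKM for the Septin2 row ENSMUSG00000116048 in Ad-GFP, a spread far wider than any difference between the groups.

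Genes that work with the members but carry other symbols were counted from lists. Over all tested genes, 19.8% rose and 20.5% fell. The risen share was 28.6% for further IFT and dynein-2 subunits, 40% for kinesin-2 and 14.3% for BBSome-linked genes. Of 7 tested further subunits of IFT and dynein-2, 2 rose and 0 fell: the IFT-B genes Cluap1, from 10.53 to 13.6 CPM (log2 fold change 0.37, adjusted p = 0.00106), and Ttc26, from 24.7 to 28.5 CPM (0.21, adjusted p = 0.00225). Rabl2, a GTPase that triggers train departure and the highest of these in FPKM (13.7), was not called at -0.11. Of 5 genes of kinesin-2, the outward motor, 2 rose and 0 fell. Kifap3, its adaptor subunit, had a log2 fold change of 0.14 (adjusted p = 0.00566) and the motor subunit Kif3b 0.1 (adjusted p = 0.00983), while Kif3a, the highest in FPKM (22.6), was not called at -0.013. Of 7 BBSome-linked genes, only Lztfl1, a regulator of BBSome entry and the highest of these in FPKM (20.7), rose, by a log2 fold change of 0.17 (adjusted p = 0.00346).

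Of 16 further genes of the transition zone and the inversin compartment, 4 rose (25%, where 19.8% of all tested genes did) and 0 fell. They include Tmem237, a transmembrane protein of the gate (log2 fold change 0.29), Anks6, a partner of the inversin-compartment kinase Nek8 (0.28), and Cspp1, a microtubule-associated ciliary protein and the highest in FPKM at 15.7 (0.14). Of 14 basal body genes, 5 rose (35.7%) and 0 fell. Those that rose include 2700049A03Rik, the mouse Talpid3 gene (log2 fold change 0.28), the distal appendage gene Cep164 (0.14) and the kinase gene Ttbk2 (0.14), which starts cilium assembly. Odf2, of the mother centriole appendages and the highest in FPKM at 34.1, was not called at -0.066.

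Among 15 genes of membrane traffic and signalling at the cilium, 5 rose (33.3%) and 1 fell (6.67%), beside 19.8% and 20.5% of tested genes. The Hedgehog transducer Smo went from 83.8 to 99.5 CPM (log2 fold change 0.24, adjusted p = 1.42e-06), Rab3ip, which activates Rab8 in ciliary vesicle delivery, from 61.5 to 73.4 CPM (0.26, adjusted p = 4.07e-06), and Gpr161, a ciliary receptor that restrains Hedgehog signalling, from 23.1 to 28.1 CPM (0.28, adjusted p = 1.43e-04). The gene that fell was Pkd1 (log2 fold change -0.14, adjusted p = 0.00127), which encodes polycystin-1 and was named after its values were seen. Pkd2, its channel partner and the highest in FPKM (37.3), was not called at -0.051. Without Ad-Cre replicate 4, 3 of this list rose, and without Ad-GFP replicate 1, 2 fell.

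The list of cilium disassembly and negative regulators moved in both directions. Of its 12 genes, 3 rose (25%) and 4 fell (33.3%), beside 19.8% and 20.5% of all tested genes. The median log2 fold change of the list was -0.022. Cep97, Kif2a and Hdac6 rose, with log2 fold changes of 0.32, 0.12 and 0.091 (adjusted p = 2.25e-04, 0.0339 and 0.0446). Of the genes that fell, Aurka was at -0.62 (adjusted p = 2.27e-04). Plk1, a mitotic kinase that also drives cilium resorption, fell from 6.33 to 3.35 CPM (log2 fold change -0.91, adjusted p = 2.2e-06), Nek2, a centrosomal kinase, fell from 5.06 to 2.96 CPM (-0.76, adjusted p = 1.34e-04), and Ccp110, which caps the mother centriole and blocks ciliogenesis, fell from 58.7 to 47.9 CPM (-0.29, adjusted p = 2.94e-05). Nedd9, the Aurora kinase A activator and the highest in FPKM (37.3), was not called at -0.035. The number of rises on this list was 1 without Ad-GFP replicate 1, 2 or 3 or Ad-Cre replicate 4. Plk1 and Nek2 are genes of dividing cells as well as of the cilium.

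Of 7 tested RFX factor genes, 1 rose (14.3%, where 19.8% of all tested genes did) and 0 fell. The risen gene was Rfx5, which is better known for MHC class II genes than for cilia (log2 fold change 0.22, adjusted p = 0.00417). Rfx3 and Rfx2, the family members tied to ciliogenesis, were named after their values were seen and were not called, at -0.038 and 0.19, and Rfx7, the highest in FPKM (17.7), was at -0.022. Among 11 tested markers of motile cilia, 2 rose and 2 fell (18.2% each, near the shares over all tested genes). Their median log2 fold change was 0.13, in a range from -0.86 to 0.73. Dnah5, an axonemal dynein chain, fell from 5.25 to 2.94 CPM (log2 fold change -0.83, adjusted p = 4.33e-05), Foxj1, the master factor of motile ciliogenesis and the highest in FPKM (26.3), rose from 68.4 to 74.8 CPM (0.13, adjusted p = 0.00362), and Ccdc39, an axonemal assembly factor, rose from 8.7 to 10.6 CPM (0.28, adjusted p = 0.0129). The number of falls was 1 without Ad-GFP replicate 1, 3 or 4 or Ad-Cre replicate 2 or 3. Of the 19 motile markers, 8 did not pass the filter, and Mcidas was at 0 counts in every library. Of 233 tested rows other than the members that the table annotates to the cilium, 41 rose and 41 fell (17.6% each). All tested genes gave 19.8% and 20.5%. The median log2 fold change of the 233 was 0.002. Only the members were taken out of this set, so it may share genes with the lists above.

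**Figure D5:**
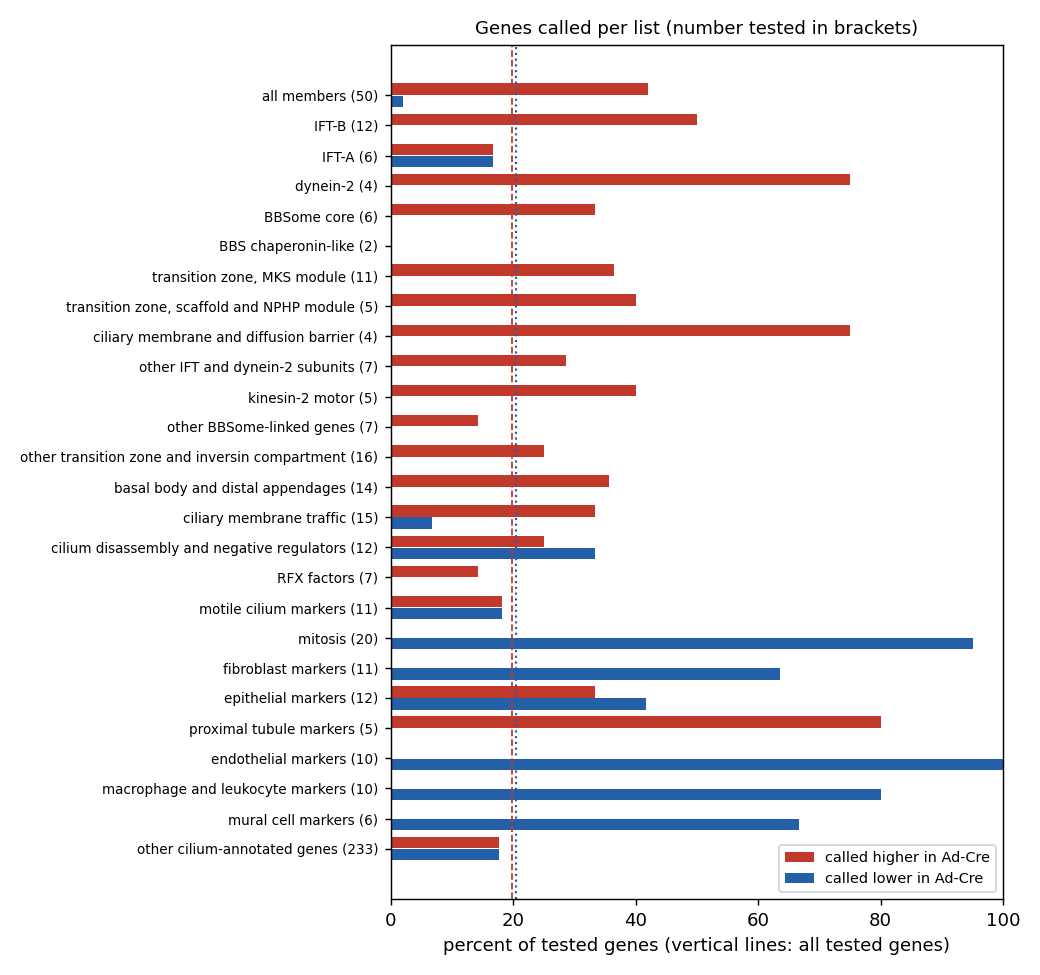
Percent of the tested genes of each list that rose (red bars) or fell (blue bars) in Ad-Cre, with vertical lines at the shares over all tested genes, 19.8% (red) and 20.5% (blue). Of the 8 member groups only IFT-A has a blue bar, and the disassembly list is the cilium list with the largest share of falls, 33.3%.

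Other features of the samples moved between the groups as well. The counts below stand beside 19.8% of all tested genes that rose and 20.5% that fell. Mitosis genes fell in 19 of 20 cases (Mki67, Top2a and Anln had the smallest p and Cdk1 the highest FPKM), with a summed level of 271.3 to 279.0 CPM in Ad-GFP and 153.1 to 168.0 CPM in Ad-Cre. Fibroblast markers fell in 7 of 11 tested cases (Vim, Col1a1 and Col1a2 had the smallest p), from 877.5 to 928.4 CPM down to 588.0 to 659.9 CPM, and Lum was near 0. Epithelial markers rose in 4 and fell in 5 of 12 cases, at 7113 to 7601 CPM. Krt19, Krt8 and Krt18, which had the smallest p, fell, with log2 fold changes of -0.55, -0.37 and -0.26. Krt7 and Cldn4 also fell, at -0.073 and -0.053. Cdh16, Epcam, Lcn2 and Pax8 rose, at 0.29, 0.24, 0.24 and 0.16, and Lcn2 had the highest FPKM. The summed FPKM of the epithelial markers was 4540 to 4745 in Ad-GFP and 4472 to 4654 in Ad-Cre. Fibroblast markers were at 233.1 to 242.8 and 149.4 to 170.5 FPKM. Epithelial markers were thus several times above them in all libraries, which goes against the label of the cells. A few genes made up much of the epithelial sum, with Lcn2 at 1561 and Krt8 at 773.5 FPKM in Ad-GFP. Proximal tubule markers rose in 4 of 5 tested cases (Aqp1, Ggt1 and Havcr1 had the smallest p), from 113.7 to 128.9 CPM up to 161.6 to 185.6 CPM, with Slc22a6 at 0 counts and Slc34a1, Slc5a2 and Miox near 0. Endothelial markers fell in 10 of 10 cases (Cdh5, Pecam1 and Emcn had the smallest p), from 138.7 to 144.6 CPM down to 65.7 to 76.7 CPM. Macrophage and leukocyte markers fell in 8 of 10 cases, and in 5 without Ad-GFP replicate 2 (Cx3cr1, Adgre1 and Csf1r had the smallest p and Lyz2 the highest FPKM), from 223.1 to 256.0 CPM down to 200.8 to 214.6 CPM, and mural cell markers in 4 of 6 (Myh11, Des and Cspg4 had the smallest p and Mcam the highest FPKM), from 265.2 to 278.9 CPM down to 231.8 to 244.6 CPM. The part of these differences in the rise of the cilium genes was not tested. The libraries held 15879244 to 17930632 counts in Ad-GFP and 18006938 to 23940043 in Ad-Cre. With every library thinned to 15879244 counts, 21 members still rose and 1 fell, where 18.1% and 19.9% of tested genes did.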

How the data were processed

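Counts of reads per gene and FPKM values were deposited by the authors for 8 libraries in 1 table of 22322 Ensembl genes, per the file headers. The deposited table also holds the authors' log2 fold changes, p-values and FDR, whose test is not named. GRCm38 and mm10 are the builds in the submitters' processing notes. No source used here gives the aligner, counter, strand setting or annotation. The deposited counts (15879244 to 23940043 per library) were analysed in R 4.3.3 with edgeR 4.0.16: filterByExpr kept 13337 genes, libraries were scaled with TMM, and Ad-Cre was set against Ad-GFP with the two-sided quasi-likelihood F-test, Benjamini-Hochberg adjusted over all tested genes, at a threshold of 0.05. CPM are relative to the TMM-scaled totals, SDs are over 4 libraries and standard errors come from the fit. The common biological coefficient of variation was 2.89%, and no 2 replicates agreed within sampling noise (chi-square per degree of freedom 1.83 to 3.35).

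The members and lists were chosen with earlier results of these data known, so no set test or adjustment over a list alone was made. Per-library CPM is given for up to 3 called members of smallest p per role, other members are named with their fold changes (2 members enter the counts but are not reported here by name), and outside lists are named by their 3 called genes of smallest p and their highest FPKM. Further called genes of the disassembly and epithelial lists were named after their values were seen. Exon overlaps were read from GENCODE M21 (GRCm38), which holds 49 of the 50 gene IDs (not that of Tctn2). Promoters are the 250 bases before starts in the RefSeq table; bases after the start were left out.

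Alternatives were RLE and upper-quartile scaling, no filter, a filter of 5 CPM, DESeq2 1.42.0, limma-voom (limma 3.58.1), limma on log2(FPKM + 1) and log2(FPKM + 0.1) for genes whose mean FPKM reached 1, the replicate number as a block, each library left out, and thinning to the smallest library. Adding the 2 Septin2 rows together was chosen after seeing the data. Data were simulated from these libraries for Ad-Cre against Ad-GFP, with 200 of 13337 genes changed. The recovered share was 76.1% at 1.25-fold, 83.6% at 1.5-fold and 97% at 2-fold, and unchanged genes made up 7.07% of calls. The member rises ran from 108.3% to 129.2% of the Ad-GFP level, and recovery below 1.25-fold was not tested. A share of changed genes near the 40.3% called in the data was not tested either.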

Additional observations from a re-analysis of the deposited data

Results flagged for a closer look

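Among 96 groups of 4 libraries (48 members, 2 groups each), 3 held a library far from the other 3 by Dixon's criterion, where chance gives about 1 in 20 groups. Traf3ip1, an IFT-B gene, was at 19.85 CPM in Ad-Cre replicate 2 and at 20.42 to 20.47 CPM in the other Ad-Cre libraries, which lay very close together. Bbs7, of the BBSome, was at 10.82 CPM in Ad-GFP replicate 4 and at 12.29 to 12.44 CPM in the other Ad-GFP libraries. Tmem67, of the MKS module, was at 13.42 CPM in Ad-GFP replicate 3 and at 14.82 to 15.02 CPM in the others. The rises of Traf3ip1, Bbs7 and Tmem67 were called in each fit that left out 1 library, although that of Bbs7 was lost on both FPKM scales (adjusted p = 0.0828 and 0.0831).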

How the results depend on the processing

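Over 19 alternatives, 10 of the 21 rises (among them Ift57, Traf3ip1, Ift122, Dync2h1, Dync2li1, Bbs1, Tmem67, Inpp5e and the Septin2 row ENSMUSG00000026276) were called in every alternative, 11 were lost in at least 1, and none changed sign. On both FPKM scales 10 members rose and 0 fell, where 12% and 11.9% of tested genes rose and 18.2% fell on each. The median log2 fold change over the members was 0.077 on log2(FPKM + 1) and 0.098 on log2(FPKM + 0.1), and 3530 and 3520 genes were called in all. That median was 0.097 with upper-quartile factors, which gave 2164 rises and 3089 falls over all genes, and 0.099 with the filter of 5 CPM. DESeq2 and upper-quartile factors each called 18 members higher, losing Dync2i2, Tmem231 and Ift52. The fall of Wdr35 was lost, leaving 0 members lower, with no filter, DESeq2, both FPKM scales and the replicate block. Leaving out each library in turn gave 18 to 22 members higher, 0 to 1 lower, a median of 0.11 to 0.13 and 4816 to 5084 called genes. In these fits 17.1% to 18.2% of tested genes were higher and 18.4% to 19.6% lower. Uncalled members whose sign changed were Tctn3 (0.002 with no filter, 0.018, 0.016 and 0.042 without Ad-GFP replicate 2, Ad-GFP replicate 4 and Ad-Cre replicate 3, and 0.006 when thinned), Ift88 (-0.0083 and -0.0085 on the FPKM scales), B9d1 (0.0025 without Ad-GFP replicate 1), Bbs4 (0.044 and 0.0046 without Ad-GFP replicate 3 and Ad-Cre replicate 3), Bbs10 (0.026, 0.0005 and 0.0055 without Ad-GFP replicate 4, Ad-Cre replicate 2 and Ad-Cre replicate 3) and Ahi1 (0.0009 when thinned). With each library left out in turn, the lowest values were -0.048 for Tctn3, -0.078 for B9d1, -0.088 for Bbs4 and -0.0904 for Bbs10. The cause of these changes was not tested.

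With the replicate number as a block, 5390 genes were called, and 19.9% of tested genes rose. In that fit 21 members rose, 0 fell, and their median log2 fold change was 0.12. Same-numbered libraries had correlations of 0.083, 0.1, 0.0076 and -0.012, and only those of replicates 1 and 2 correlated best with their own number, so the numbers do not pair the samples. Small counts limit the weakest members, with a standard error of up to 0.16 on the log2 scale.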

Other observations

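The authors' FPKM and the counts gave different pictures of a few members from library to library. The ratio of CPM to FPKM, which is constant for a gene when a single length is used for all libraries, varied over the 8 libraries by a coefficient of variation of 1.43% in the median member, by under 2% in 28 members and by over 5% in 10. Ift80, an IFT-B gene, varied by 10.6%: the Ad-GFP libraries gave 9.36, 9.0, 7.83 and 10.56 FPKM and the Ad-Cre libraries 7.65, 9.26, 10.81 and 10.66 FPKM, while its count-based level ran from 27.9 to 35.2 CPM over the 8 libraries. Ift81, of the same complex, varied by 9.79%.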
